A study of Solanum lycopersicum with 36 samples.

Results

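Gene expression was compared in leaves of nongrafted, self-rooted tomato seedlings (NGSs) after 12 h in 175 mM NaCl, against leaves of the same kind of seedling harvested at 0 h, before salt was added. The libraries were chosen by their labels alone, 3 at 12 h and 3 at 0 h, which makes 6 of the 36 libraries of the series. The plants were Zhongza 9, a salt-sensitive variety, and grew in oxygenated Hoagland's nutrient solution, to which the NaCl was added for the salt groups. The remaining libraries came from NGSs at 6, 24, 48 and 96 h and from grafted seedlings (GSs), in which the scion stood on the rootstock QZ-006, at the same 6 time points. The GSs at 12 h and 0 h, with 3 libraries each, served as the comparison most like the one described here. Each group had 3 biological replicates according to the methods of the study, and how many plants made up a replicate was not given there. No unstressed seedlings were sequenced after 0 h. The effect of salt and the effect of the hour of the day, or of the time that had passed, therefore cannot be told apart in any of the values.

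Salt reaches a plant first as an osmotic stress, since water is held back outside the root, and later as an ionic stress, when sodium enters the leaf. Leaves respond through abscisic acid, the hormone that closes stomata and switches on dehydration genes, and they slow cell expansion, which depends on wall-loosening proteins and water channels. Photosynthesis genes are among the most highly expressed genes of a leaf. Many of them also follow the light and the circadian clock through the day.

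Expression was read as FPKM, fragments scaled to gene length and to a denominator for each library, so that levels can be set side by side between genes. Between libraries, levels also depend on that denominator, which did not follow the reads on genes, as described below. Values of single libraries are given in the order of the replicate numbers in the labels (4, 5 and 6 at 12 h, and 1, 2 and 3 at 0 h), means are given with the SD (n = 3), and fold changes are on the log2(FPKM + 1) scale with their SE, which understates changes of genes with low values. Genes with an adjusted p under 0.05 and a log2 fold change of at least 1 in either direction were called. Adjusted p came from limma, a linear model fitted to each gene over all 36 libraries, with the spread moderated across genes. Benjamini-Hochberg adjustment was made over the 20090 genes tested. Of the remaining genes in the table, most had too little signal for the test, which asked for 1 FPKM in at least 3 libraries. In bulk leaf tissue, fewer cells of a type and less RNA per cell cannot be told apart.

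The 12 h libraries held 21151747 to 24897177 reads on genes and the 0 h libraries held 15232862 to 18405070, within a range of 15232862 to 26661747 over the series. The replicates were less alike at 12 h (R2 of log2(FPKM + 1) between 0.857 and 0.890) than at 0 h (0.919 to 0.951), with replicate 6 the farthest from the others at 12 h. All 18 leaf markers, which were small subunits of Rubisco and chlorophyll-binding proteins, were above 1 FPKM in at least 1 library of each group. Their summed level was 9545 to 24375 FPKM at 12 h, against 64846 to 100983 FPKM at 0 h. Of 9 fruit markers, 6 were below 1 FPKM in every library, among them the ripening genes E8, PG2 and 2A11, which were listed at 0. The other 3 were Psy1, which the carotenoid list also holds, MSRA and SPL-CNR, and they brought the summed level of the list to 33.7 to 119 FPKM at 12 h, against 398 to 474 FPKM at 0 h. The 3 pollen markers did not exceed 0.0681 FPKM at 12 h and 0.804 FPKM at 0 h.

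At 12 h, 5411 genes (26.9% of those tested) were called, of which 2016 (10.0%) were higher and 3395 (16.9%) were lower than at 0 h. The 12 h and 0 h libraries did not overlap for 5140 of the 5411 called genes, while over all genes tested this held for 54.0%. The median log2 fold change was 1.47 among the genes that rose and −1.69 among those that fell. Large falls were more frequent than large rises, with 1220 genes at or below −2 and 495 at or above 2, and with 196 at or below −4 and 40 at or above 4. The split between rises and falls depended on the scale. On the deposited scale the median of all genes was 0.00. The reads on genes per unit of the scaling denominator were 0.744 to 0.816 at 12 h, against 1.01 to 1.15 at 0 h, relative to the mean of the 36 libraries. When the library totals were used instead, the median of all genes shifted by 0.37 on the log2 scale, and 4042 genes (20.1%) were higher while 2356 (11.7%) were lower. The fold changes given are those of the deposited scale. On the scale of library totals they are higher by an amount that differs between genes, so the median shift does not convert single values. The median of the light-harvesting list, for example, moved from −3.18 to −2.71, and that of the gibberellin list from 0.01 to 0.14.

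**Figure D1:**
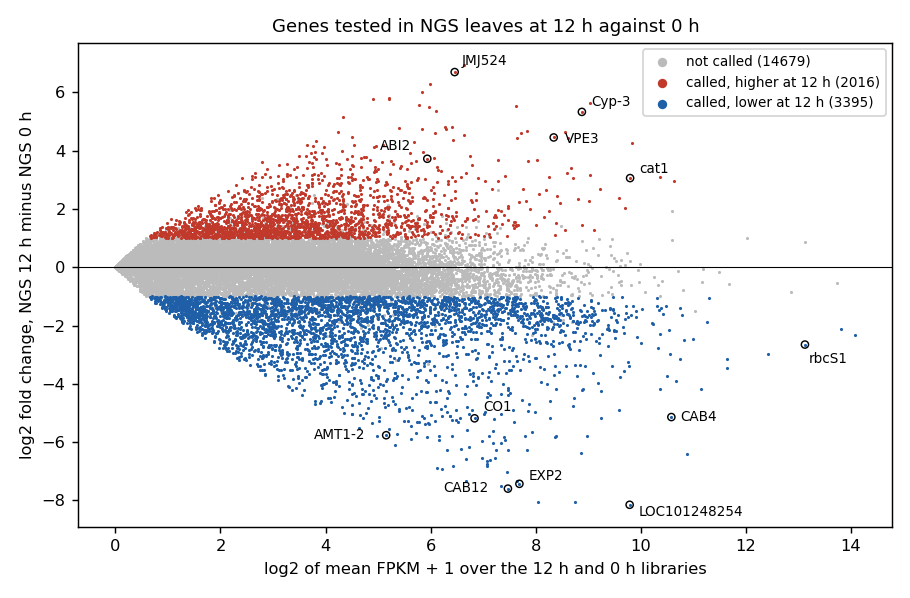
Each point is a gene, with its level over the 12 h and 0 h libraries (log2 of mean FPKM + 1) on the x axis and its log2 fold change at 12 h against 0 h on the y axis. Red points are the 2016 genes called higher at 12 h and blue points are the 3395 called lower. The circled genes are named in the text, and the deepest fall, that of LOC101248254, lay at −8.15.

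The largest rise among genes with a symbol and a mean of at least 10 FPKM in the higher group was that of JMJ524, which encodes a JmjC-domain protein of the histone demethylase family. It had 160.5, 217 and 141 FPKM in the 12 h libraries, against 1.82, 0.129 and 0.407 FPKM in the 0 h libraries (log2 fold change 6.70 ± 0.24, adjusted p = 3.31e-18). All 3 libraries at 12 h were high and all 3 at 0 h were near the lower limit of measurement. Cyp-3 had 818, 685 and 1249 FPKM at 12 h, against 15.9, 25.6 and 23 FPKM at 0 h (log2 fold change 5.33 ± 0.67, adjusted p = 2.84e-07). VPE3, a vacuolar processing enzyme, had 319, 623 and 924 FPKM at 12 h, against 25.5, 26.5 and 23.1 FPKM at 0 h (log2 fold change 4.45 ± 0.88, adjusted p = 1.37e-04). In both genes all 12 h libraries lay far above all 0 h libraries. PEPC1 (log2 fold change 3.73), THIC (3.32), PTOX (3.21), PT1 (3.43), cuAO (3.35) and ERF-H9 (3.42) rose as well. THIC makes a precursor of thiamine, PTOX is the plastid terminal oxidase, PT1 is a phosphate transporter, cuAO is a copper amine oxidase and ERF-H9 is a factor of the ERF family. ERF-H9 had 58.9, 5.47 and 4.42 FPKM at 12 h, against 0.339, 0.179 and 0.0852 FPKM at 0 h, so that its mean rested largely on replicate 4. USP had 20.2, 7.31 and 47.9 FPKM at 12 h, against 0.515, 0.726 and 0.288 FPKM at 0 h, and the calls of USP and ERF-H9 were lost when the recovered reads were tested with voom.

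The largest falls included genes of the light-harvesting antenna and of the growing cell wall and 5 others. Dea1 had 0.332, 1.09 and 2.05 FPKM at 12 h, against 149, 149 and 172 FPKM at 0 h (log2 fold change −6.27 ± 0.47, adjusted p = 2.05e-11). AMT1-2, an ammonium transporter, had 0.48, 0.201 and 0.194 FPKM at 12 h, against 72, 66.5 and 68.1 FPKM at 0 h (log2 fold change −5.76 ± 0.44, adjusted p = 3.16e-11). GLB1, a plant hemoglobin by its synonym PHYTOGB1, had 1.47, 1.17 and 2.13 FPKM at 12 h, against 139, 90.9 and 79.1 FPKM at 0 h (log2 fold change −5.30 ± 0.75, adjusted p = 1.50e-06). No 12 h library of these genes exceeded 2.13 FPKM. CO1, a member of the CONSTANS family of factors that link day length to development, had 7.34, 4.55 and 3.83 FPKM at 12 h, against 189, 224 and 250.0 FPKM at 0 h (log2 fold change −5.18 ± 0.21, adjusted p = 3.69e-17). PIP2-1, a water channel of the plasma membrane, had 2.48, 2.12 and 5.86 FPKM at 12 h, against 199, 187 and 215 FPKM at 0 h (log2 fold change −5.58 ± 0.42, adjusted p = 2.15e-11). No 12 h library of either gene came near the 0 h range.

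The light-harvesting antenna was the list of genes with the deepest median fall. Its proteins bind chlorophyll a and b and pass light energy to photosystems I and II. All 16 members were tested, of which 13 fell and none rose, against 16.9% lower over all genes, and their median log2 fold change was −3.18 (0.00 over all genes). CAB12 had 0.421, 0.537 and 1.52 FPKM in the 12 h libraries, against 439, 238 and 379 FPKM in the 0 h libraries (log2 fold change −7.60 ± 1.17, adjusted p = 5.68e-06). Cab-1A had 0.469, 1.85 and 3.28 FPKM at 12 h, against 302, 183 and 314 FPKM at 0 h (log2 fold change −6.64 ± 0.76, adjusted p = 5.22e-08), and Cab-1D had 5.09, 2.48 and 2.76 FPKM at 12 h, against 361, 209 and 287 FPKM at 0 h (log2 fold change −6.02 ± 0.82, adjusted p = 8.89e-07). These genes were thus close to silent in all 12 h libraries and abundant in all 0 h libraries. CAB4, the most abundant antenna gene at 0 h, had 91.7, 89.3 and 69.8 FPKM at 12 h, against 3297, 2609.7 and 3025 FPKM at 0 h (log2 fold change −5.14 ± 0.37, adjusted p = 1.05e-11). The fall was not uniform. CAB9 had 288, 672 and 438 FPKM at 12 h, against 2466, 1900.0 and 2177 FPKM at 0 h and CAB7 had 369, 547 and 555 FPKM at 12 h, against 2350.1, 1557 and 1815 FPKM at 0 h, so both were still abundant at 12 h. CAB1B (494, 637 and 729 FPKM at 12 h, against 974, 764 and 1096 FPKM at 0 h), CAB6A (328, 558 and 455.6 FPKM at 12 h, against 397, 278 and 367 FPKM at 0 h) and LOC101267774 (307, 477 and 378 FPKM at 12 h, against 642, 449 and 643 FPKM at 0 h) were not called, and CAB6A and LOC101267774 overlapped between the groups. Several antenna genes are near-identical copies, and how the authors' counting shared reads between them is not stated, so the values of single members are uncertain. With library totals as the scale, 12 of the 16 were lower and none higher.

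**Figure D2:**
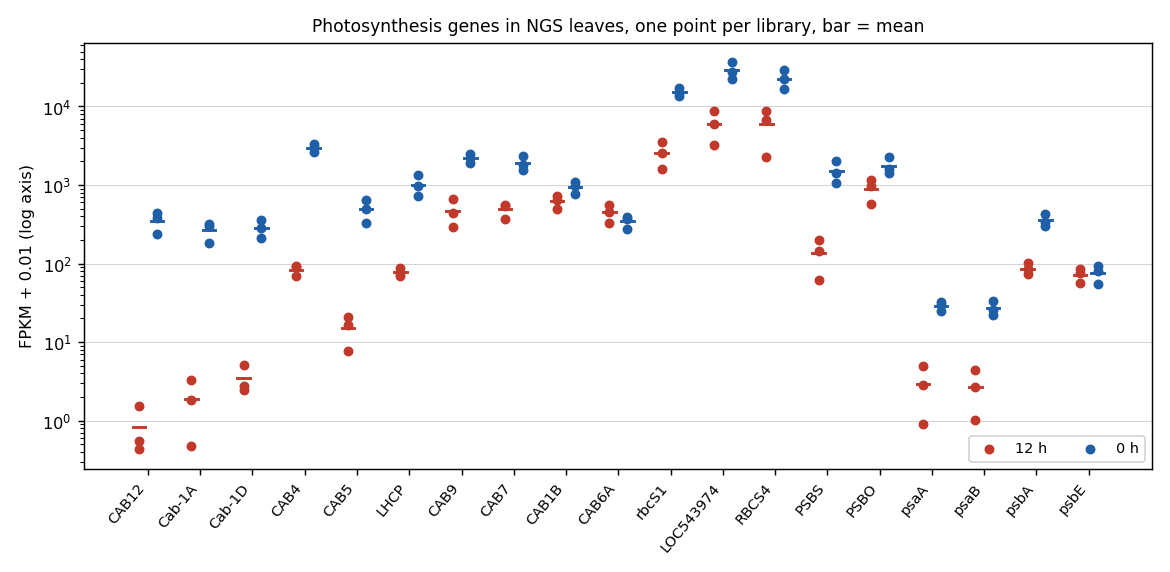
FPKM + 0.01 on a log axis of antenna genes, Rubisco small subunit genes, photosystem genes and plastid-encoded genes, with 1 point per library (red, 12 h and blue, 0 h) and a bar at the mean of 3 libraries. CAB12, Cab-1A and Cab-1D lay at or below 5.09 FPKM in every 12 h library, while CAB6A and the plastid gene psbE overlapped between the groups.

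Of 11 nuclear genes for photosystem subunits and carbon fixation, 9 fell and none rose, against 16.9% lower and 10.0% higher over all genes. Their median was −1.47. The small subunits of Rubisco, the enzyme that fixes CO2, were the most abundant of them. rbcS1 had 1576, 2553 and 3503 FPKM in the 12 h libraries, against 17432, 13473 and 14973 FPKM in the 0 h libraries (log2 fold change −2.65 ± 0.53, adjusted p = 1.57e-04). LOC543974, with the synonym rbcS2, had 3249.7, 6044 and 8718 FPKM at 12 h, against 36765, 22098 and 27309.7 FPKM at 0 h (log2 fold change −2.34 ± 0.41, adjusted p = 3.56e-05), and RBCS4 had 2269, 6779 and 8722 FPKM at 12 h, against 28957, 16806 and 22185 FPKM at 0 h (log2 fold change −2.11 ± 0.49, adjusted p = 7.82e-04). Replicate 4 was the lowest 12 h library in each of these genes. The 3 genes together took 0.850%, 1.72% and 2.47% of the reads on genes in the 12 h libraries, against 6.49%, 4.63% and 5.35% in the 0 h libraries. The share of the 16 antenna genes was 0.341%, 0.520% and 0.462% at 12 h, against 1.63%, 1.30% and 1.52% at 0 h. PSBS, a photosystem II protein that turns excess light into heat, had 61.9, 145 and 198 FPKM at 12 h, against 1993, 1072 and 1412 FPKM at 0 h (log2 fold change −3.56 ± 0.48, adjusted p = 7.07e-07). SBPASE, an enzyme of the Calvin cycle, had 93.5, 332 and 256 FPKM at 12 h, against 1083, 601 and 759.7 FPKM at 0 h, and PSBO, a protein of the water-splitting complex, had 571, 1148 and 966 FPKM at 12 h, against 2263, 1407 and 1584 FPKM at 0 h without being called. With library totals as the scale, 6 of the 11 were lower and none higher, and the call of RBCS4 was lost when the 6 libraries compared were fitted alone.

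Photosystem genes of the plastid genome fell too. Of 20 tested, 15 fell and none rose (median −2.11), against 16.9% lower and 10.0% higher over all genes. psaA had 5.0, 0.906 and 2.81 FPKM at 12 h, against 32.1, 24.6 and 29.4 FPKM at 0 h (log2 fold change −3.07 ± 0.65, adjusted p = 2.98e-04) and psaB, which encodes the other core protein of photosystem I, had 4.36, 1.01 and 2.69 FPKM at 12 h, against 32.9, 22 and 25.9 FPKM at 0 h (log2 fold change −3.02 ± 0.62, adjusted p = 2.29e-04). psbD had 4.36, 1.43 and 2.62 FPKM at 12 h, against 25.3, 22.4 and 23.2 FPKM at 0 h (log2 fold change −2.77 ± 0.60, adjusted p = 3.87e-04), and psaI had 4.42, 0.317 and 1.95 FPKM at 12 h, against 15.1, 23.1 and 14.7 FPKM at 0 h (log2 fold change −2.73 ± 0.71, adjusted p = 0.00224). Replicate 5 was the lowest 12 h library in each of these 4 genes. The 0 h levels were lower in the GSs, where psaA had 7.89, 5.98 and 4.15 FPKM at 0 h and 4.97, 3.75 and 4.82 FPKM at 12 h. The GS values of psaB were 10.2, 7.79 and 5.24 FPKM at 0 h and 4.04, 3.37 and 5.60 FPKM at 12 h. The falls in the NGSs thus started from high 0 h libraries. Of the 20 genes, 1 was called for the difference between the responses of NGSs and GSs, described below. psbA, for the D1 protein of photosystem II, had 100.4, 73.7 and 84.4 FPKM at 12 h, against 428, 338 and 299.9 FPKM at 0 h (log2 fold change −2.03 ± 0.74, adjusted p = 0.0243), a call that was lost without 12 h replicate 5 or 0 h replicate 1 (adjusted p up to 0.0696). psbE was level, with 56.4, 84.8 and 75.8 FPKM at 12 h, against 91.9, 79.4 and 55.1 FPKM at 0 h. Plastid transcripts mostly lack long poly(A) tails, the libraries were made from mRNA, and these 20 genes took only 0.0190% to 0.0254% of the reads at 12 h, against 0.0622% to 0.0753% at 0 h. The part that poly(A) capture has in these values was not tested.

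Among the genes for light receptors and light signalling, 5 fell and 1 rose of 16 tested, against 16.9% lower and 10.0% higher over all genes. PHOT2, a blue-light receptor of the phototropin family, had 9.45, 20.8 and 22.8 FPKM in the 12 h libraries, against 144, 148 and 132 FPKM in the 0 h libraries (log2 fold change −3.02 ± 0.29, adjusted p = 3.20e-09). HY5, a bZIP factor that promotes light-dependent development, had 8.63, 4.78 and 13.9 FPKM at 12 h, against 38.8, 78.7 and 83.2 FPKM at 0 h (log2 fold change −2.78 ± 0.33, adjusted p = 9.50e-08). CRY3 had 3.4, 5.57 and 7.22 FPKM at 12 h, against 19, 34.5 and 27.8 FPKM at 0 h (log2 fold change −2.14 ± 0.27, adjusted p = 2.74e-07). The cryptochrome gene CRY2 went the other way, with 34.5, 47.1 and 31.8 FPKM at 12 h, against 10.4, 13.8 and 9.43 FPKM at 0 h (log2 fold change 1.67 ± 0.24, adjusted p = 2.08e-06). The groups did not overlap in any of these 4 genes. PHYB1, a phytochrome gene, had 6.53, 8.33 and 8.64 FPKM at 12 h, against 23.2, 19.5 and 21.9 FPKM at 0 h, while PHYA had 14, 15 and 17.4 FPKM at 12 h, against 8.27, 6.99 and 8.35 FPKM at 0 h. SGR1, whose product starts chlorophyll breakdown, had 47.1, 54 and 88.5 FPKM at 12 h, against 10.4, 11.9 and 13.3 FPKM at 0 h (log2 fold change 2.27 ± 0.84, adjusted p = 0.0254). The groups were separate, but the call was lost without 0 h replicate 1, 0 h replicate 2 or 12 h replicate 6 (adjusted p up to 0.0792). The clock list held LNK1 alone, which was not called. With library totals as the scale, 3 receptor and signalling genes were higher and 3 lower.

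Genes of the growing cell wall fell as deeply as the antenna genes in several cases. The list held 37 tested members (expansins, xyloglucan endotransglucosylases and hydrolases or XTHs, and pectin and cellulose enzymes). Of these, 17 fell and 2 rose, against 16.9% lower and 10.0% higher over all genes, and the median was −0.88. Expansins loosen the wall so that turgor can stretch it, and XTHs cut and rejoin the xyloglucan that ties cellulose fibrils together. EXP2 had 1.23, 1.15 and 1.77 FPKM in the 12 h libraries, against 360.2, 432 and 436 FPKM in the 0 h libraries (log2 fold change −7.43 ± 0.62, adjusted p = 2.07e-10). EXP12 had 5.78, 5.16 and 2.9 FPKM at 12 h, against 288, 327 and 385 FPKM at 0 h (log2 fold change −5.93 ± 0.54, adjusted p = 1.00e-09), and exp11 had 1.04, 2.57 and 2.19 FPKM at 12 h, against 156, 275 and 198 FPKM at 0 h (log2 fold change −6.17 ± 0.47, adjusted p = 3.73e-11). XTH7 had 0.346, 0.591 and 4.85 FPKM at 12 h, against 98.5, 247 and 217 FPKM at 0 h (log2 fold change −6.24 ± 0.64, adjusted p = 7.27e-09). In these 4 genes no 12 h library exceeded 5.78 FPKM, and no 0 h library was below 98.5 FPKM. XTH1, at 0.221, 2.1 and 11.4 FPKM at 12 h, against 43.8, 62.8 and 52.2 FPKM at 0 h, had a less even fall, in which replicate 6 kept 11.4 FPKM. The 2 genes that rose were PMEU1, a pectin methylesterase gene, with 109, 174 and 136 FPKM at 12 h, against 16.7, 25.6 and 13.2 FPKM at 0 h (log2 fold change 2.87 ± 0.52, adjusted p = 5.69e-05), and TBG4, a beta-galactosidase gene, with 57.3, 50.5 and 20.3 FPKM at 12 h, against 4.44, 8.21 and 6.03 FPKM at 0 h (log2 fold change 2.50 ± 0.60, adjusted p = 0.00113). Reads of XTH genes with similar sequences could be shared between copies, and the counting of such reads is not stated.

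The 3 aquaporin genes of the list were lower at 12 h, against 16.9% of all genes tested. PIP2-1, which the list did not hold, is given above. PIP1-5, the most abundant, had 133, 209 and 218 FPKM at 12 h, against 929.8, 1013 and 1042 FPKM at 0 h (log2 fold change −2.44 ± 0.17, adjusted p = 6.63e-12). PIP2-7 had 11.1, 17.6 and 19.3 FPKM at 12 h, against 190.4, 206 and 225 FPKM at 0 h (log2 fold change −3.64 ± 0.39, adjusted p = 1.83e-08), and TIP, named after the channels of the vacuole membrane, had 0.791, 1.01 and 1.49 FPKM at 12 h, against 10.2, 19 and 19.9 FPKM at 0 h (log2 fold change −3.01 ± 0.37, adjusted p = 1.51e-07). In all of them the highest 12 h library was well under the lowest 0 h library.

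The deepest fall of any tested gene was that of LOC101248254, whose synonym gast1 names a gibberellin-stimulated transcript. It had 2.81, 2.82 and 14.4 FPKM in the 12 h libraries, against 1319.9, 2143 and 1811 FPKM in the 0 h libraries (log2 fold change −8.15 ± 0.94, adjusted p = 6.40e-08). The gene was among the most abundant at 0 h, and at 12 h replicate 6 was the highest library. GA20OX1, an enzyme of gibberellin synthesis, had 1.53, 0.678 and 3.32 FPKM at 12 h, against 47, 25.3 and 30.3 FPKM at 0 h (log2 fold change −3.69 ± 0.70, adjusted p = 9.58e-05), and GAI, a DELLA protein that holds back gibberellin responses, had 13.3, 20.5 and 19 FPKM at 12 h, against 61.9, 56.1 and 64.4 FPKM at 0 h (log2 fold change −1.75 ± 0.22, adjusted p = 3.13e-07). GA2ox3, which inactivates gibberellin, had 10.3, 1.85 and 0.492 FPKM at 12 h, against 0.248, 0.105 and 0.149 FPKM at 0 h (log2 fold change 1.64 ± 0.59, adjusted p = 0.0218). The groups did not overlap, but the rise rested on replicate 4 and was not called without it or without 0 h replicate 2 (adjusted p up to 0.25). Of 10 gibberellin genes tested, 4 fell and 2 rose, against 16.9% lower and 10.0% higher over all genes. The median of this list was 0.01, and 0.14 with library totals as the scale.

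Auxin genes mostly fell or stayed uncalled, with 14 lower and 3 higher of 48 tested (median −0.41). Over all genes tested, 16.9% were lower and 10.0% higher. The deepest falls were those of Aux/IAA genes, early auxin-response genes whose products repress further response. IAA4 had 17.1, 18.4 and 12.5 FPKM in the 12 h libraries, against 251, 379 and 403 FPKM in the 0 h libraries (log2 fold change −4.33 ± 0.41, adjusted p = 1.92e-09). IAA16 had 12.2, 16.7 and 19.7 FPKM at 12 h, against 137, 148 and 131 FPKM at 0 h (log2 fold change −3.04 ± 0.32, adjusted p = 1.06e-08), and IAA7 had 27.5, 17.4 and 34.9 FPKM at 12 h, against 139.9, 216 and 274 FPKM at 0 h (log2 fold change −2.93 ± 0.42, adjusted p = 2.13e-06). IAA2 had 0.637, 0.776 and 1.08 FPKM at 12 h, against 13.3, 22.6 and 23.2 FPKM at 0 h (log2 fold change −3.47 ± 0.44, adjusted p = 2.89e-07). The 12 h libraries were thus within a narrow band in each gene, far below those at 0 h. The auxin efflux carrier gene PIN4 had 15.8, 11.8 and 15.2 FPKM at 12 h, against 60.4, 62 and 64.3 FPKM at 0 h. Against the trend of the list, ARF24, an auxin response factor gene, had 33, 21.6 and 18.5 FPKM at 12 h, against 4.87, 4.03 and 4.05 FPKM at 0 h. Of 10 cytokinin genes, 4 were lower and 1 was higher. LOG8, which activates cytokinins, had 1.52, 3.97 and 3.28 FPKM at 12 h, against 70.1, 23 and 29.8 FPKM at 0 h (log2 fold change −3.31 ± 0.66, adjusted p = 1.71e-04), LOG7 and CKX4 fell by 2.11 and 2.28 on the log2 scale, and IPT3, an enzyme of cytokinin synthesis, had 14.9, 8.93 and 9.5 FPKM at 12 h, against 4.24, 2.51 and 1.87 FPKM at 0 h (log2 fold change 1.66 ± 0.36, adjusted p = 4.01e-04). Of 6 brassinosteroid genes, 0 were called by limma and 0 by voom, while 3 had an unadjusted p under 0.05 (56.9% over all genes). The log2 fold changes of the 6 lay between −0.28 and 0.91. With library totals as the scale 1 was called higher. In each of the fits without 0 h replicate 2 and without 12 h replicate 6, 1 was called. For the difference between the responses of NGSs and GSs, described below, 1 was called.

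**Figure D3:**
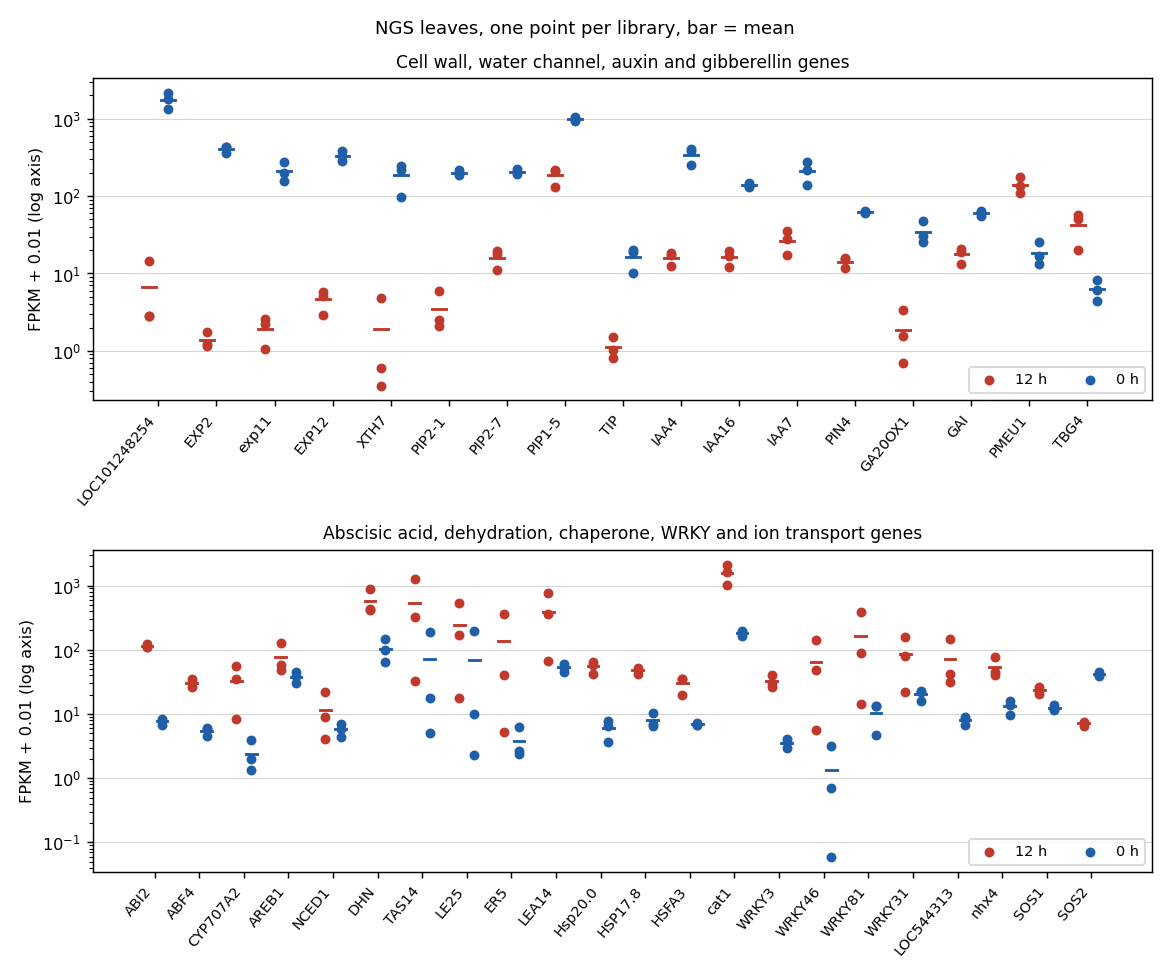
FPKM + 0.01 on a log axis, with 1 point per library (red, 12 h and blue, 0 h) and a bar at the mean of 3 libraries. The upper panel shows genes of growth, most of them far lower at 12 h, such as EXP2 with at most 1.77 FPKM at 12 h, and the lower panel shows stress genes, of which ABI2 and ABF4 were tightly grouped and TAS14, ER5, LE25 and WRKY46 were widely scattered.

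Of 8 abscisic acid genes tested, 3 rose and none fell, against 10.0% higher over all genes (median 0.77). ABI2, a protein phosphatase that is itself induced by the hormone and restrains its signal, had 109, 109 and 121 FPKM in the 12 h libraries, against 8.23, 7.88 and 6.8 FPKM in the 0 h libraries (log2 fold change 3.72 ± 0.28, adjusted p = 1.88e-11). ABF4, a bZIP factor of the abscisic acid pathway, had 31.2, 26.2 and 34.9 FPKM at 12 h, against 4.47, 6.1 and 5.78 FPKM at 0 h (log2 fold change 2.30 ± 0.14, adjusted p = 2.90e-13). Both genes had narrow ranges in both groups. CYP707A2, which breaks the hormone down, had 34.9, 56 and 8.31 FPKM at 12 h, against 3.86, 1.33 and 1.96 FPKM at 0 h (log2 fold change 3.05 ± 0.91, adjusted p = 0.00662), with replicate 6 lowest at 12 h. NCED1, the enzyme that limits abscisic acid synthesis, was not called, with 4.02, 8.87 and 22.3 FPKM at 12 h, against 6.87, 4.38 and 5.92 FPKM at 0 h. AREB1 had 56.9, 47.7 and 125 FPKM at 12 h, against 30.3, 44.3 and 39.5 FPKM at 0 h and stayed below the fold change threshold.

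Of 13 tested genes for dehydrins and other dehydration proteins, 4 rose and none fell, against 10.0% higher and 16.9% lower over all genes. Of these, DHN had 893, 414 and 426 FPKM in the 12 h libraries, against 64.2, 145 and 99.2 FPKM in the 0 h libraries (log2 fold change 2.46 ± 0.47, adjusted p = 1.07e-04), and its groups did not overlap. TAS14, a dehydrin gene first known from salt-treated tomato, had 323, 32.9 and 1259.6 FPKM at 12 h, against 5.01, 191 and 17.6 FPKM at 0 h (log2 fold change 3.11 ± 1.11, adjusted p = 0.021). ER5 had 361, 40.5 and 5.24 FPKM at 12 h, against 6.32, 2.62 and 2.41 FPKM at 0 h (log2 fold change 3.34 ± 1.18, adjusted p = 0.0198), and LEA14 had 755, 358 and 65.9 FPKM at 12 h, against 52.8, 45.8 and 61.1 FPKM at 0 h (log2 fold change 2.29 ± 0.77, adjusted p = 0.0147). These genes scattered widely. In TAS14, 0 h replicate 2 was above 12 h replicate 5, and ER5 was at its 0 h level in 12 h replicate 6. The calls were lost without 12 h replicate 4 in TAS14 (adjusted p up to 0.167 over the 6 fits that leave out 1 library), ER5 (up to 0.209) and LEA14 (up to 0.129), and also without 1 to 3 other libraries in each. LE25 showed the same scatter without being called, with 169, 17.83 and 537 FPKM at 12 h, against 2.27, 197 and 9.85 FPKM at 0 h. In TAS14 and LE25, 0 h replicate 2 stood far above the other 0 h libraries. Over the list, 1 gene was called without 12 h replicate 4, 2 without 0 h replicate 3 and 7 without 12 h replicate 5, while 8 were called higher and none lower with library totals as the scale.

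Of 23 genes for sodium, potassium, proton and calcium transport and its control, 4 rose and 2 fell (median 0.58), against 10.0% higher and 16.9% lower over all genes. Without 12 h replicate 6, 10 of them were called. nhx4, a sodium/proton exchanger gene, had 76.4, 41 and 45.3 FPKM in the 12 h libraries, against 9.46, 13.8 and 16 FPKM in the 0 h libraries (log2 fold change 1.95 ± 0.32, adjusted p = 1.24e-05), and nhx3, another one, had 13.4, 8.78 and 14.8 FPKM at 12 h, against 3.88, 5.61 and 4.89 FPKM at 0 h. LOC101250084, with the synonym CNGC6 of a cyclic nucleotide-gated channel, had 25.9, 23.1 and 17.2 FPKM at 12 h, against 6.89, 7.26 and 6.74 FPKM at 0 h (log2 fold change 1.51 ± 0.18, adjusted p = 9.98e-08). SOS1, the sodium exporter of the plasma membrane, had 26.6, 20.2 and 22.9 FPKM at 12 h, against 13.7, 11.6 and 11.8 FPKM at 0 h and did not reach the fold change threshold. SOS2, the kinase that activates SOS1, fell, with 6.43, 7.31 and 7.6 FPKM at 12 h, against 38.6, 40.3 and 45.8 FPKM at 0 h (log2 fold change −2.39 ± 0.17, adjusted p = 5.13e-12), and so did CIPK6, a kinase of the same family, with 22.2, 39.5 and 48.2 FPKM at 12 h, against 138, 95.5 and 94 FPKM at 0 h (log2 fold change −1.60 ± 0.30, adjusted p = 9.57e-05). In nhx4, SOS1, SOS2 and CIPK6 the groups did not overlap. With library totals as the scale, 11 of the 23 were higher and 2 lower.

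Among heat shock proteins and their factors, 6 of 20 tested genes rose and none fell, against 10.0% higher and 16.9% lower over all genes. Hsp20.0 and HSP17.8, which are small heat shock protein genes, had 57.8, 64.5 and 42.6 FPKM at 12 h, against 6.53, 7.72 and 3.63 FPKM at 0 h (log2 fold change 3.04 ± 0.41, adjusted p = 7.49e-07) in the first and 48.3, 42.6 and 52.7 FPKM at 12 h, against 10.4, 6.93 and 6.42 FPKM at 0 h (log2 fold change 2.47 ± 0.40, adjusted p = 1.25e-05) in the second. HSTF24 and HSFA3, genes of heat stress transcription factors, had log2 fold changes of 2.31 ± 0.40 and 1.94 ± 0.24. None of these 4 genes overlapped between the groups. Antioxidant genes went both ways, with 9 lower and 5 higher of 26, against 16.9% lower and 10.0% higher over all genes. With library totals as the scale, 6 were lower and 8 higher. cat1, a catalase gene, had 1649, 2124 and 1006 FPKM in the 12 h libraries, against 186, 162 and 199 FPKM in the 0 h libraries (log2 fold change 3.06 ± 0.54, adjusted p = 4.04e-05), while CAT2, also a catalase gene, had 117, 387 and 257 FPKM at 12 h, against 823, 657 and 648 FPKM at 0 h. The opposite courses of cat1 and CAT2 held in every library. GGP1 and GME1, enzymes of ascorbate synthesis, had 113, 174 and 223 FPKM at 12 h, against 1842, 1403 and 1446 FPKM at 0 h (log2 fold change −3.24 ± 0.25, adjusted p = 4.39e-11) in GGP1 and 8.13, 21.5 and 26.1 FPKM at 12 h, against 313, 217 and 263 FPKM at 0 h (log2 fold change −3.89 ± 0.38, adjusted p = 3.35e-09) in GME1. The ascorbate peroxidase gene APX1 averaged 455 ± 106 FPKM at 12 h, against 206 ± 11.4 FPKM at 0 h, and APX2, of the same family, averaged 126 ± 11.3 FPKM at 12 h, against 55.7 ± 5.45 FPKM at 0 h. FESOD, an iron superoxide dismutase gene, averaged 351 ± 208 FPKM at 12 h, against 709 ± 229 FPKM at 0 h, and its call was lost without 0 h replicate 1 or 12 h replicate 4 (adjusted p up to 0.116).

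WRKY factors, which act in defence and abiotic stress, rose in 7 of 19 tested genes and fell in 2 (median 0.89). The shares over all genes tested were 10.0% higher and 16.9% lower. The list had 5 calls in all without 12 h replicate 4 or 12 h replicate 5. With voom on the recovered reads 4 were higher and 2 lower, and the calls of WRKY46, WRKY81 and LOC543855 were lost. WRKY3 had 26.2, 41 and 30.2 FPKM in the 12 h libraries, against 4.13, 2.96 and 3.63 FPKM in the 0 h libraries (log2 fold change 2.86 ± 0.26, adjusted p = 1.22e-09), and its groups did not overlap. WRKY46 had 47.7, 143 and 5.65 FPKM at 12 h, against 0.683, 3.2 and 0.049 FPKM at 0 h (log2 fold change 4.20 ± 1.25, adjusted p = 0.0064), WRKY81 had 89.9, 389 and 14 FPKM at 12 h, against 13.1, 13.4 and 4.7 FPKM at 0 h (log2 fold change 2.95 ± 1.17, adjusted p = 0.0372) and LOC543855, a WRKY gene by the study's annotation, had 32.3, 27.3 and 1.34 FPKM at 12 h, against 1.42, 1.23 and 1.84 FPKM at 0 h (log2 fold change 2.39 ± 0.82, adjusted p = 0.0169). In these 3 genes replicate 6 was far below replicates 4 and 5, and for LOC543855 it lay within the 0 h range. The calls were lost without 12 h replicate 5 (adjusted p up to 0.0541 for WRKY46), without 12 h replicate 4 or 5 (up to 0.121 for LOC543855), and without any of 5 libraries, all except 12 h replicate 6 (up to 0.24 for WRKY81). EDS1, a regulator of immune signalling, showed the same order of libraries, with 33.5, 54 and 8.57 FPKM at 12 h, against 10.3, 10.7 and 7.68 FPKM at 0 h, and so did loxD, a lipoxygenase gene of jasmonate synthesis, with 25.2, 21.7 and 4.39 FPKM at 12 h, against 3.36, 3.57 and 2.3 FPKM at 0 h. Both were called, and both calls were lost without any of the libraries other than 12 h replicate 6 (adjusted p up to 0.236 and 0.157). NAC factors rose in 3 of 8 tested genes and fell in none, against 10.0% higher and 16.9% lower over all genes. NAP1, of the NAP group known from leaf senescence, had 53.3, 49.1 and 30.4 FPKM at 12 h, against 3.77, 7.78 and 5.45 FPKM at 0 h (log2 fold change 2.77 ± 0.71, adjusted p = 0.00208), NACMTF2 had 118, 148 and 43.6 FPKM at 12 h, against 18.5, 18.3 and 16 FPKM at 0 h (log2 fold change 2.31 ± 0.42, adjusted p = 5.60e-05), and NAC4 had a log2 fold change of 1.78 ± 0.42. In NAP1 and NACMTF2 replicate 6 was again the lowest at 12 h but did not overlap with the 0 h libraries. Without 12 h replicate 6, 2348 genes rose and 3611 fell over the whole table.

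Of 10 DREB and zinc finger factors, JERF1, of the ERF family, rose, with 139, 199 and 89.2 FPKM at 12 h, against 47.1, 54.5 and 46.3 FPKM at 0 h, and DREB2 fell, with 1.35, 0.807 and 0.228 FPKM at 12 h, against 3.21, 4.26 and 4.0 FPKM at 0 h. Without 0 h replicate 2, 4 of the list were called. Over all genes tested, 10.0% were higher and 16.9% lower. In the list of bZIP and MYB factors, 4 of 15 were lower and 1 was higher. The 4 were the MYB genes THM6, MYB12 and MYB75 and also TGAS118, which is no bZIP or MYB factor and entered through its name. With library totals 2 were lower and 3 higher, and the list had 3 calls without 0 h replicate 1, 0 h replicate 3, 12 h replicate 4 or 12 h replicate 5. THM6, a MYB gene, had 7.63, 4.9 and 1.58 FPKM at 12 h, against 29.2, 57.4 and 52.4 FPKM at 0 h (log2 fold change −3.16 ± 0.41, adjusted p = 3.63e-07). MYB12, a regulator of flavonol synthesis in tomato, had 12.7, 1.41 and 7.05 FPKM at 12 h, against 8.72, 23.4 and 19.5 FPKM at 0 h, and MYB75 had 3.65, 1.67 and 22.1 FPKM at 12 h, against 18.9, 15.3 and 17.2 FPKM at 0 h. Both were called lower, but their groups overlapped and the calls were lost without 12 h replicate 5 and without 2 other libraries each (adjusted p up to 0.246 for MYB12 and 0.215 for MYB75).

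The phenylpropanoid and flavonoid pathway was lower almost throughout, with 9 of 11 genes falling and none rising (median −2.11). The shares over all genes tested were 16.9% lower and 10.0% higher. PAL5, PAL2 and PAL3 encode phenylalanine ammonia-lyase, which opens the pathway. PAL5 had 5.6, 5.0 and 2.35 FPKM in the 12 h libraries, against 31.5, 81.5 and 62.2 FPKM in the 0 h libraries (log2 fold change −3.44 ± 0.71, adjusted p = 2.20e-04), PAL2 had 0.809, 1.88 and 3.03 FPKM at 12 h, against 8.74, 32.3 and 23.5 FPKM at 0 h (log2 fold change −2.85 ± 0.62, adjusted p = 4.32e-04), and PAL3, the most abundant, had 201, 67.5 and 83.2 FPKM at 12 h, against 281, 598 and 549 FPKM at 0 h. 4CL, a later step on the way to lignin and flavonoids, had 21.8, 21.9 and 17.1 FPKM at 12 h, against 72.6, 148 and 137 FPKM at 0 h (log2 fold change −2.44 ± 0.33, adjusted p = 6.85e-07). CHS2, a chalcone synthase gene at the entry to flavonoids, had 0.962, 0.0248 and 5.26 FPKM at 12 h, against 24.5, 8.29 and 36 FPKM at 0 h (log2 fold change −3.15 ± 0.75, adjusted p = 0.00101), with 0 h replicate 2 the lowest at 0 h. All 5 genes were separate between the groups, and with library totals as the scale 9 of the 11 were still lower. Carotenoid genes fell in 7 of 15 cases and rose in none (median −1.08), against 16.9% lower and 10.0% higher over all genes. Psy1, a phytoene synthase gene at the start of the pathway, had 9.38, 26 and 57.1 FPKM at 12 h, against 342, 295 and 304 FPKM at 0 h (log2 fold change −3.63 ± 0.37, adjusted p = 8.77e-09), PSY2 had 17.2, 27.6 and 41.4 FPKM at 12 h, against 123.01, 92.3 and 92.7 FPKM at 0 h (log2 fold change −1.87 ± 0.38, adjusted p = 1.75e-04), and LCY1, a lycopene cyclase gene, had 6.83, 16 and 21.9 FPKM at 12 h, against 104, 66.8 and 79.4 FPKM at 0 h (log2 fold change −2.51 ± 0.29, adjusted p = 7.03e-08). In these 3 genes replicate 4 was the lowest 12 h library. dxs2, of the plastid pathway that feeds carotenoids, had a log2 fold change of −2.61 ± 0.58.

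Genes of nitrogen assimilation fell in 4 of 8 cases and rose in 1. LOC100736473, with the synonym NIA of nitrate reductase, had 4.92, 25.5 and 15.2 FPKM at 12 h, against 238, 178 and 204 FPKM at 0 h (log2 fold change −3.92 ± 0.49, adjusted p = 2.30e-07). GS2, the plastid glutamine synthetase, had 109.8, 424 and 336 FPKM at 12 h, against 1599, 905 and 1041 FPKM at 0 h (log2 fold change −2.19 ± 0.46, adjusted p = 2.67e-04), while GS1, the cytosolic form, had 167, 69 and 181 FPKM at 12 h, against 58.2, 74.8 and 95.7 FPKM at 0 h and was not called. The groups of GS1 overlapped. AS1, for asparagine synthetase, had 38.5, 5.86 and 8.89 FPKM at 12 h, against 0.303, 3.03 and 2.02 FPKM at 0 h. All its 12 h libraries were above those at 0 h, but the spread at 12 h left it without a call (adjusted p = 0.0601). In sugar and starch metabolism 7 of 22 genes rose and 5 fell, against 10.0% higher and 16.9% lower over all genes. BMY3, a beta-amylase gene of starch breakdown, had 30.9, 20.7 and 50.5 FPKM at 12 h, against 342, 410.0 and 396 FPKM at 0 h (log2 fold change −3.54 ± 0.24, adjusted p = 2.27e-12), and AGPL3, a subunit of the enzyme that starts starch synthesis, had 20.4, 40.0 and 28.5 FPKM at 12 h, against 154, 130.3 and 129 FPKM at 0 h (log2 fold change −2.23 ± 0.30, adjusted p = 6.41e-07). LeSUT1, the sucrose transporter of phloem loading, had 240.1, 302 and 148 FPKM at 12 h, against 90.3, 53.9 and 51.6 FPKM at 0 h, and SPS, sucrose-phosphate synthase, had 35.3, 82.7 and 62.8 FPKM at 12 h, against 23, 14.5 and 15.7 FPKM at 0 h. The groups did not overlap in these 4 genes. STP11 was called lower with 2.8, 15.8 and 2.12 FPKM at 12 h, against 15.2, 23.1 and 30.5 FPKM at 0 h, which overlapped between the groups. HT2, a hexose transporter gene, had 31.3, 15.6 and 7.0 FPKM at 12 h, against 0.883, 6.29 and 1.83 FPKM at 0 h, and its call was lost without 0 h replicate 1 or 12 h replicate 4 (adjusted p up to 0.0868).

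Ribosomal protein genes fell in 7 of 8 cases, with a median of −1.56 and little scatter. ubi3 had 235, 237 and 257 FPKM in the 12 h libraries, against 1156, 866 and 1196 FPKM in the 0 h libraries (log2 fold change −2.12 ± 0.16, adjusted p = 1.69e-11). RPL8 and rpl38 had log2 fold changes of −1.63 ± 0.17 and −1.60 ± 0.18. In these 3 genes 0 h replicate 2 was the lowest 0 h library and still lay above all 12 h libraries. With library totals as the scale, 5 of the 8 were lower. Cell cycle and histone genes fell in 7 of 18 cases and rose in none, against 16.9% lower and 10.0% higher over all genes. However, 3 were lower and 2 higher with library totals, and 4 were called without 0 h replicate 3. PCNA, the clamp of replicating DNA polymerase, had 4.06, 5.53 and 4.9 FPKM at 12 h, against 26.4, 14.2 and 25.1 FPKM at 0 h (log2 fold change −1.93 ± 0.26, adjusted p = 9.11e-07), and the cyclin gene cycd3c3 had 2.69, 1.13 and 3.42 FPKM at 12 h, against 11.6, 6.42 and 12.2 FPKM at 0 h (log2 fold change −1.72 ± 0.45, adjusted p = 0.00241).

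In the ethylene list, 6 of 45 genes fell and 3 rose, and in the jasmonate and wounding list 5 of 23 fell and 2 rose, against 10.0% higher and 16.9% lower over all genes. Both balances turned with library totals as the scale, to 10 higher and 5 lower for ethylene and 5 higher and 3 lower for jasmonate. The calls in the ethylene list numbered 14 without 12 h replicate 6, and those in the jasmonate list numbered 3 without 0 h replicate 1 and 4 without 12 h replicate 5. The ACC oxidase genes EFE and ACO4, for the last step of ethylene synthesis, had 1.12, 1.29 and 0.538 FPKM at 12 h, against 12, 13.3 and 7.19 FPKM at 0 h (log2 fold change −2.56 ± 0.57, adjusted p = 5.51e-04) in EFE and 77.2, 58.5 and 61.4 FPKM at 12 h, against 424, 215 and 283 FPKM at 0 h (log2 fold change −2.16 ± 0.34, adjusted p = 9.21e-06) in ACO4. EIL3, of the EIN3 family of factors that carry the ethylene signal, had 49.7, 63.5 and 40.0 FPKM at 12 h, against 23.1, 17.9 and 19 FPKM at 0 h. ERF-H1 and LOC606712, an ERF gene with the synonym TERF1, fell by 2.38 and 1.81 on the log2 scale. LOC101259064 and LOC101259357, both with the synonym PPO of polyphenol oxidase, had 0.823, 0.162 and 1.73 FPKM at 12 h, against 32.8, 12.3 and 7.88 FPKM at 0 h (log2 fold change −3.14 ± 0.68, adjusted p = 3.68e-04) in the first and 4.24, 0.272 and 3.04 FPKM at 12 h, against 15.7, 27.4 and 26.6 FPKM at 0 h (log2 fold change −2.98 ± 0.76, adjusted p = 0.00184) in the second. ARG2, an arginase gene, had 4.22, 0.831 and 3.79 FPKM at 12 h, against 42.4, 25.1 and 8.48 FPKM at 0 h, and its call was lost without 0 h replicate 1, 0 h replicate 2 or 12 h replicate 5 (adjusted p up to 0.0971). Of 17 tested genes for pathogenesis-related proteins and regulators of defence, 1 was called higher, the regulator EDS1 given above, and 1 lower. The lower one was GluB, a glucanase gene, with 1.49, 0.824 and 0.769 FPKM at 12 h, against 3.92, 2.79 and 9.66 FPKM at 0 h (log2 fold change −1.54 ± 0.45, adjusted p = 0.00543). Without 0 h replicate 3 neither was called. The call of EDS1 was also lost when any other library except 12 h replicate 6 was left out. PR1b1 had 3506, 3904 and 394 FPKM at 12 h, against 602, 513 and 314 FPKM at 0 h and CHI3 had 415, 418 and 391 FPKM at 12 h, against 28.3, 703 and 168 FPKM at 0 h, and both overlapped between the groups.

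**Figure D4:**
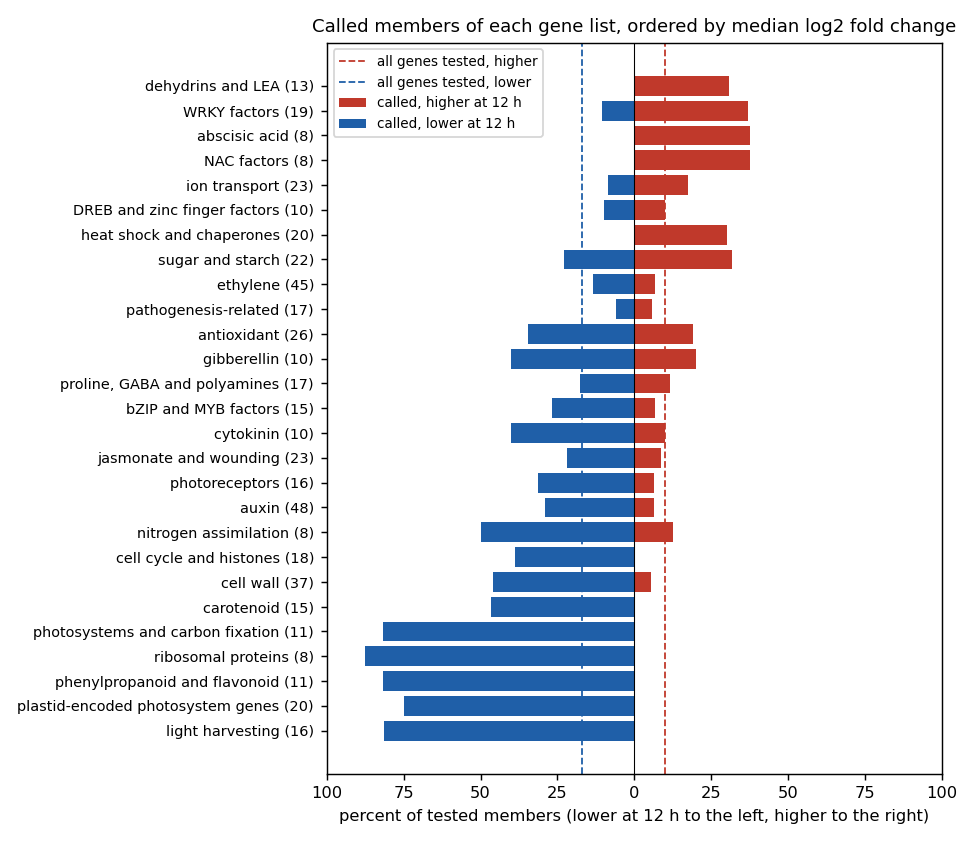
Share of the tested members of each gene list that was called higher at 12 h (red, right) or lower at 12 h (blue, left), with the number tested in parentheses and the lists ordered by median log2 fold change from the top. Dashed lines mark the shares over all genes tested (10.0% higher and 16.9% lower), and the photosynthesis, phenylpropanoid and ribosomal protein lists at the bottom held no member called higher.

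The study singled out 20 genes by identifier in its results, chosen on these samples, so their direction here is not independent evidence. Of these, 5 rose (LOC543855 above among them), 3 fell and 12 were not called. LOC101250636, given by the study as the bZIP factor PosF21, had 49.1, 89.4 and 21.2 FPKM at 12 h, against 14.4, 13.9 and 17.9 FPKM at 0 h (log2 fold change 1.51 ± 0.48, adjusted p = 0.0103), and the call was lost without 12 h replicate 5 (adjusted p up to 0.0968). WRKY31 had 80.9, 158 and 22 FPKM at 12 h, against 22.9, 22.1 and 16 FPKM at 0 h (log2 fold change 1.67 ± 0.59, adjusted p = 0.0211), and its groups overlapped at replicate 6. Its call was lost without 12 h replicate 4, 12 h replicate 5 or 0 h replicate 3 (adjusted p up to 0.175), while LOC101247012, also a WRKY gene, had 38.5, 63.5 and 13.5 FPKM at 12 h, against 17.2, 11.6 and 10.3 FPKM at 0 h and was not called (adjusted p = 0.0574). LOC544313, a glutamate decarboxylase gene for the synthesis of GABA, had 145, 41.7 and 31.2 FPKM at 12 h, against 6.64, 8.43 and 9.11 FPKM at 0 h (log2 fold change 2.70 ± 0.39, adjusted p = 1.87e-06). SAM2, for S-adenosylmethionine synthase, had 54, 71.2 and 90.0 FPKM at 12 h, against 196, 272 and 285 FPKM at 0 h (log2 fold change −1.80 ± 0.42, adjusted p = 7.68e-04), and LOC101254281, for NADH-dependent glutamate synthase, had 8.94, 7.78 and 4.36 FPKM at 12 h, against 37.9, 43.5 and 26.4 FPKM at 0 h (log2 fold change −2.22 ± 0.38, adjusted p = 2.09e-05). The groups were separate in these 3 genes. LOC101265384, a DELLA gene by the study's annotation, had 9.32, 7.52 and 4.07 FPKM at 12 h, against 1.12, 1.88 and 1.61 FPKM at 0 h (log2 fold change 1.6 ± 0.31, adjusted p = 1.30e-04), the opposite direction to GAI above. LOC101253380, an antenna gene, had 32.2, 68 and 39.8 FPKM at 12 h, against 191, 113 and 156 FPKM at 0 h (log2 fold change −1.73 ± 0.70, adjusted p = 0.0397), and its call was lost without any of 4 libraries (adjusted p up to 0.125). The XTH genes XTH3, LOC101258345, LOC101258926 and LOC101258632 were at or below 7.18 FPKM in all 6 libraries, and in each of them 12 h replicate 5 was the highest of the 12 h libraries. LOC101258632 had 0, 5.34 and 0.145 FPKM at 12 h, against 3.44, 5.12 and 6.22 FPKM at 0 h without being called (adjusted p = 0.0767). JAZ2 had 31.9, 17.9 and 12.8 FPKM at 12 h, against 12.2, 53.9 and 13.3 FPKM at 0 h, in which 0 h replicate 2 stood apart, and LOC101247936, a TIFY gene, had 125, 49.9 and 35.4 FPKM at 12 h, against 61.5, 72.6 and 48.4 FPKM at 0 h. GH3.2 did not exceed 1.88 FPKM in any of the 6 libraries. LOC101265059 had 12.9, 10.9 and 18.3 FPKM at 12 h, against 34.1, 24.1 and 23.5 FPKM at 0 h and missed the fold change threshold, and LOC101253938, for a phosphotransfer protein of cytokinin signalling, had 15.7, 3.32 and 13.5 FPKM at 12 h, against 6.14, 2.83 and 5.19 FPKM at 0 h.

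Means over the other time points of the NGSs place the 12 h values. At 0, 6, 12, 24, 48 and 96 h, JMJ524 averaged 0.786, 5.5, 173, 3.04, 1.53 and 0.884 FPKM, which was high at 12 h alone among these times. THIC averaged 10.5, 51.2, 133, 28.6, 25.2 and 11.7 FPKM, and PTOX averaged 3.31, 7.94, 39.8, 5.38, 3.83 and 9.37 FPKM, and both peaked at 12 h. CO1 averaged 221, 5.62, 5.24, 145, 279.5 and 98.5 FPKM, which was low at 6 and 12 h and high again from 24 h on. GGP1 averaged 1564, 315, 170.1, 1919.7, 4453 and 2781 FPKM, and PHOT2 averaged 141, 55, 17.7, 125, 251 and 200.1 FPKM. EXP2 averaged 409, 2.03, 1.38, 15.1, 60.3 and 124 FPKM, and LOC101248254 averaged 1758, 17.6, 6.66, 13.1, 93.7 and 283 FPKM, and both stayed below their 0 h mean at every later time. ABI2 averaged 7.63, 117, 113, 95.7, 72.1 and 39.9 FPKM, and cat1 averaged 182, 2413, 1593, 599.9, 355 and 269 FPKM, with their highest means at 6 h. The harvests at 24, 48 and 96 h were whole days after 0 h. The differences between later time points were not tested here.

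The response at 12 h was also set against that of the GSs. The difference between the responses, (NGS 12 h minus NGS 0 h) minus (GS 12 h minus GS 0 h), was called for 1293 genes (6.44%), of which 311 (1.55%) had the higher and 982 (4.89%) the lower fold change in the NGSs. This count was unstable. Left-out libraries moved it between 538 (without GS 12 h replicate 6) and 2034 (without GS 0 h replicate 1), and it was 639 without NGS 0 h replicate 3, 697 without GS 0 h replicate 2, 739 without GS 0 h replicate 3, 815 without NGS 12 h replicate 5 and 861 without NGS 12 h replicate 4. For 936 of the 1293 genes (72.4%), the mean log2 levels of the NGSs and GSs lay farther apart at 0 h than at 12 h, against 57.4% of all genes tested. AOX1a, the alternative oxidase of mitochondria, had 82.8, 42.9 and 15.1 FPKM at 12 h, against 17, 22.9 and 17 FPKM at 0 h in the NGSs. In the GSs it had 18.5, 12.1 and 9.45 FPKM at 12 h against 63.5, 77.8 and 62.4 FPKM at 0 h (difference of the responses 3.28). The 0 h level of the GSs thus exceeded that of the NGSs, and the NGS response alone was not called. NAP2, of the NAC family, had 31.4, 39.3 and 35.3 FPKM at 12 h, against 32.4, 37.1 and 34.2 FPKM at 0 h in the NGSs. In the GSs it had 14.5, 23.5 and 10.7 FPKM at 12 h against 44.7, 199.6 and 163 FPKM at 0 h (difference 2.83), so that the GS libraries did not overlap between 12 h and 0 h while the 6 NGS libraries stayed between 31.4 and 39.3 FPKM. AAP2, an amino acid permease gene, had 203, 87.2 and 77.4 FPKM at 12 h, against 27.5, 12.2 and 7.43 FPKM at 0 h in the NGSs (log2 fold change 2.93 ± 0.40, adjusted p = 9.87e-07). In the GSs it had 59.1, 98.3 and 43.8 FPKM at 12 h against 40.5, 67.7 and 75.2 FPKM at 0 h (difference 2.83). Rcr3, a cysteine protease gene of pathogen defence, and Lehsr203, named after a hypersensitive response gene, completed the 5 largest positive differences among genes with a symbol, with 4.46 and 3.16.

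On the negative side, EXP5, an expansin gene, had 6.7, 10.6 and 6.99 FPKM at 12 h, against 61.5, 162 and 152 FPKM at 0 h in the NGSs (log2 fold change −3.70 ± 0.42, adjusted p = 4.95e-08). In the GSs it had 12.3, 25.1 and 26.7 FPKM at 12 h against 25.8, 17.6 and 21 FPKM at 0 h (difference −3.64), where both groups lay in one range. XTH16 had 5.49, 2.21 and 20.6 FPKM at 12 h, against 34, 26.8 and 43.7 FPKM at 0 h in the NGSs. In the GSs it had 24, 29.1 and 51.3 FPKM at 12 h against 5.6, 10.9 and 2.36 FPKM at 0 h (difference −4.60), so that the fold changes had opposite signs. The fall of LOC101248254 also differed, since it had 47.7, 96.3 and 121 FPKM at 12 h against 319, 376 and 274 FPKM at 0 h in the GSs (difference −6.20), with 0 h levels already well below those of the NGSs. CAB4 had 243, 198 and 369.9 FPKM at 12 h against 3541, 1751 and 2842 FPKM at 0 h in the GSs (difference −1.83), from 0 h levels that overlapped with those of the NGSs. PIP2-7 had 41, 37.4 and 62.4 FPKM at 12 h against 137, 66.9 and 60.0 FPKM at 0 h in the GSs (difference −2.82), and IAA16 had 27.5, 34.7 and 37.2 FPKM at 12 h against 85, 35.7 and 83.7 FPKM at 0 h (difference −2.11). BMY3 was the reverse case, with 22.3, 21.2 and 18.6 FPKM at 12 h against 690.3, 479 and 595 FPKM at 0 h in the GSs (difference 1.21). CAB4 was the 1 member of 16 of the light-harvesting list called for the difference, which is near the share over all genes (6.44%). The cell wall list held 7 of 37 and the auxin list 6 of 48, and whether lists differ was not tested.

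**Figure D5:**
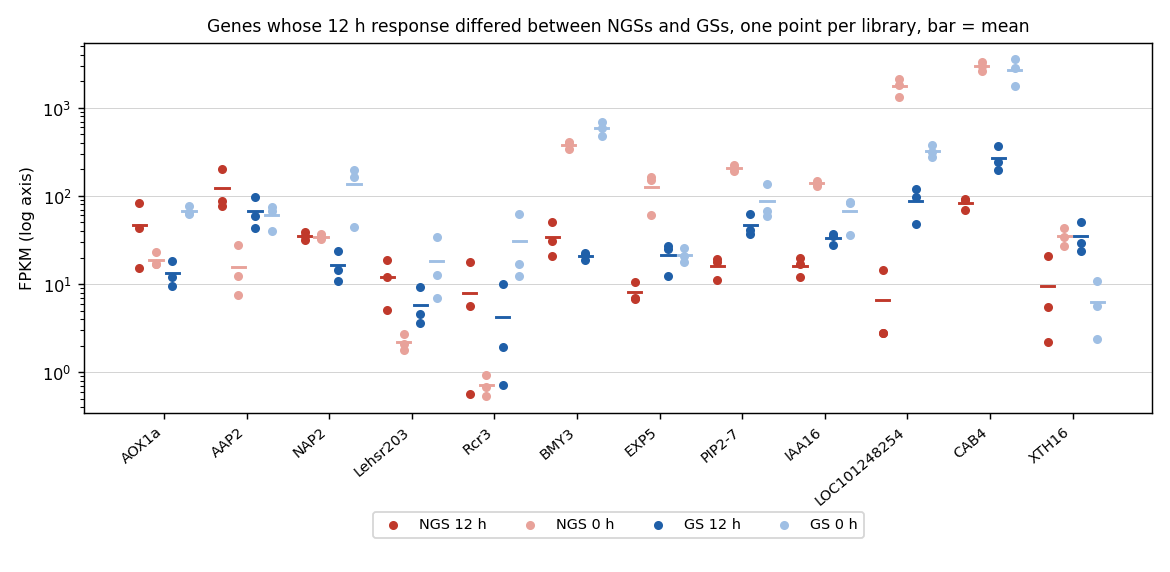
FPKM on a log axis of 12 genes called for the difference between the 12 h responses, with 1 point per library and a bar at the mean of 3 libraries, for NGS 12 h, NGS 0 h, GS 12 h and GS 0 h. NAP2 was level in the NGSs and lower at 12 h in the GSs, and EXP5 was lower at 12 h in the NGSs and level in the GSs.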

How the data were processed

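Leaf mRNA was sequenced from 36 libraries in 12 groups, and the authors mapped reads with HISAT to build SL 2.0 of the tomato genome. The submitters' processing notes also name HISAT2 2.0.5, featureCounts 1.5.0-p3 and DESeq2 1.16.1, without their roles. Counting options, strand and annotation release are not given in the sources used here. The authors deposited FPKM values of 32246 genes, read here as FPKM from their form, with 984 genes of their own definition. For 27368 of 27368 genes above 0, dividing a gene by what 1 read is worth gave whole numbers within 0.03 reads, so reads per library were recovered. Genes with at least 1 FPKM in at least 3 libraries (20090) were fitted on log2(FPKM + 1) with limma 3.58.1 in R 4.3.3 (lmFit, eBayes with trend), as 12 group means with 24 residual degrees of freedom, with Benjamini-Hochberg adjustment. The fit was tested on simulated data. Tables and plots were made in Python 3.11.15 with pandas 2.3.3, NumPy 2.4.6 and matplotlib 3.10.9. P-values rest on the spread between the 3 replicates of a group, pooled over all 12 groups and moderated across genes. They do not rest on the spread of the libraries compared alone.

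Gene symbols came from a RefSeq table (assembly SLM_r2.1, 28942 identifiers matched, 2941 with a symbol), whose build differs from that of the authors, so no coordinates and no sequences are given. Gene lists were patterns on symbols and synonyms, and short lists miss genes without a symbol. The members and lists were chosen with earlier results of these data known. The rule for named genes took the 20 genes that the study names by identifier, the 12 largest rises and 12 largest falls among non-overlapping genes with a symbol and a mean of at least 10 FPKM, up to 4 called genes with the largest fold changes in each list (other members with values only), and the 5 largest differences between the NGSs and GSs in each direction among genes with a symbol. Of the genes this rule takes, 1 is not reported here. FUL1 and other genes outside the rule were chosen after their values were seen. Alternatives were voom on recovered reads, library totals as the scale, only the libraries compared, pseudocounts of 0.1 and 0.01, no filter, a filter at 5 FPKM, other thresholds and leaving out each library.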

Additional observations from a re-analysis of the deposited data

Results flagged for a closer look

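The genes below were set apart because the 12 h response of the NGSs differed from that of the GSs in the test of the difference itself (limma, adjusted p under 0.05 and a difference of at least 1 on the log2 scale, 6.44% of the genes tested). Groups of 3 libraries were too small for a check of single outlying values. The response was the more positive in the NGSs for Rcr3 (difference 4.46), AOX1a (3.28), Lehsr203 (3.16), AAP2 (2.83), NAP2 (2.83), LeSUT1 (1.59), ARF24 (1.66), NAC4 (1.86) and BMY3 (1.21). In growth and hormone genes the response was the more negative for LOC101248254 (−6.20), XTH16 (−4.60), EXP5 (−3.64), PIP2-7 (−2.82), IAA16 (−2.11), IAA7 (−1.84), LOG7 (−1.55), ERF-H1 (−2.0), XTH1 (−2.85) and CycA2 (−1.89). The same held for the light and carbon genes CAB4 (−1.83), LOC543974 (−2.0), HY5 (−1.48), CRY3 (−1.25) and AGPL3 (−1.31), and for the MYB gene THM6 (−2.56). The polyphenol oxidase genes LOC101259064 (−4.03) and LOC101259357 (−3.94) had GS levels of at most 9.62 FPKM in both groups.

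Several further differences rested on the NGS libraries at 0 h. The plastid genes LyesC2r001, a ribosomal RNA gene, and trnG-GCC, a transfer RNA gene, had differences of −4.60 and −3.51. LyesC2r001 had 10.9, 0.258 and 0.907 FPKM at 12 h, against 85.6, 70.9 and 125 FPKM at 0 h in the NGSs, against 0.985 to 3.64 FPKM over the 6 GS libraries. TPP3 (difference −4.17) had 0, 0 and 0 FPKM at 12 h, against 94.6, 0.322 and 35.2 FPKM at 0 h in the NGSs, so that its fitted value depends on the pseudocount and on 2 libraries.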

How the results depend on the processing

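The 5411 calls at 12 h stayed within 1.5 times under voom (6525), library totals (6398), only the libraries compared (5005), pseudocounts of 0.1 (6705) and 0.01 (6723), no filter (5361), a filter at 5 FPKM (4651) and an FDR under 0.01 (4893). Without the fold change threshold they were 10312 (4799 higher and 5513 lower), and with library totals 4042 were higher. Leaving out 1 library gave 4983 to 5959, of which 1824 to 2348 were higher and 3159 to 3611 lower. The 2997 genes tested and called under all fitted alternatives included 1147 that rose and 1850 that fell. The 1293 calls for the difference between NGSs and GSs became 287 at an FDR under 0.01 and 538 to 2034 when 1 library was left out. The cause was not tested. Genes that were not called and changed sign were XTH3 (0.065 with library totals and −1.02 to 0.24 without 1 library), JAZ2 (0.35, and −0.45 to 0.57), psbE (0.41, and −0.26 to 0.12), LOC101247936 (−0.50 to 0.39 without 1 library) and NAP2 (−0.051 to 0.11).

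No paired analysis was possible because NGS 12 h and NGS 0 h share no replicate number. For the difference between NGSs and GSs, a replicate block gave 1590 calls, and same-numbered libraries deviated together unevenly (correlations of −0.10 to 0.46). Libraries of different numbers were not compared in this way, so these values cannot show whether the numbers pair the samples. With 3 libraries a group, genes such as TAS14 and WRKY81 scattered too widely for a firm call. The promoter letters planned for search could not be read and were not analysed here.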

Other observations

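Gene groups not described above gave mixed values. Of 17 genes for proline, GABA and polyamines, 2 rose and 3 fell, near the 10.0% higher and 16.9% lower over all genes. Without 0 h replicate 3 or 12 h replicate 4, 3 were called. With library totals as the scale 4 were higher and 1 lower. GAD3, a glutamate decarboxylase gene, had 19.6, 5.15 and 10.0 FPKM at 12 h, against 5.41, 3.4 and 2.98 FPKM at 0 h (log2 fold change 1.21 ± 0.45, adjusted p = 0.0272), and ODC, of polyamine synthesis, had 5.81, 6.95 and 7.39 FPKM at 12 h, against 29.1, 9.25 and 16.5 FPKM at 0 h (log2 fold change −1.19 ± 0.44, adjusted p = 0.0256). Each call was lost in 3 of the 6 fits that left out 1 library, that without 12 h replicate 4 among them (adjusted p up to 0.198 and 0.169). Of the 11 floral organ genes taken as markers, 3 passed the filter. FUL1, a MADS-box gene related to FRUITFULL, had 68.2, 57.3 and 45.3 FPKM at 12 h, against 9.45, 15.1 and 13.6 FPKM at 0 h (log2 fold change 2.08 ± 0.37, adjusted p = 3.62e-05). Its 12 h libraries were all above those at 0 h. TDR6, also of this list, was not called, with 28.5, 29.1 and 10.9 FPKM at 12 h, against 25.7, 38.8 and 35.5 FPKM at 0 h, nor was AG1, with 0.44, 0.182 and 0.0456 FPKM at 12 h, against 1.33, 2.28 and 0.692 FPKM at 0 h, and the median of the 3 was −0.62. TAGL1 and TM29 were at or below 0.295 FPKM in the 6 libraries.

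The deepest changes included genes without a symbol or synonym in the reference table, and the following pair was chosen after the values were seen. LOC101265380 had 173, 214 and 204 FPKM at 12 h, against 0.155, 1.11 and 0.664 FPKM at 0 h (log2 fold change 6.95 ± 0.40, adjusted p = 8.46e-14), the largest rise of all genes tested, and LOC101258159 had 0.467, 0.511 and 2.55 FPKM at 12 h, against 538, 531 and 513 FPKM at 0 h (log2 fold change −8.05 ± 0.30, adjusted p = 5.65e-18). Over 0, 6, 12, 24, 48 and 96 h, LOC101265380 averaged 0.643, 15.1, 197, 2.4, 1.29 and 4.36 FPKM and LOC101258159 averaged 528, 8.18, 1.17, 339, 369 and 684 FPKM. Of 598 tested genes that the authors defined from their reads, 137 were called (22.9%, against 26.9% over all genes).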
